A study of Mus musculus with 20 samples.

Results

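The 10 genes described here encode RNA-binding proteins that set alternative splicing in muscle: Rbfox1, Rbfox2, Mbnl1, Mbnl2, Mbnl3, Celf1, Celf2, Rbm20, Rbm24 and Qk. They were chosen by name and matched by symbol to the Ensembl IDs of the count table, which gave 10 of 63318 listed genes, and all 10 were among the 19741 genes that passed the filter on low counts. Poly(A) RNA of mouse heart, extracted with Trizol, was sequenced in 16 short-read libraries. Myocardial infarction (MI, 4 libraries) was sampled 72 h after surgery. Ischemia-reperfusion (IR, 4 libraries) followed 40 min of "LCA", an abbreviation the labels leave unexplained, with reperfusion, in which blood flow returns, for 72 h after it. Each injury had its own sham-operated group, MISham and IRSham, of 4 libraries. MI and MISham tissue was taken as the infarct core with its periphery and IR and IRSham tissue as the core. In sham-operated hearts these terms can name only a region. The 2 injuries thus also differ in the region taken, and the effects of each cannot be told apart. The labels used here give no strain, sex or age and do not tie libraries to separate animals, so the spread behind each p-value is that between libraries. The 4 long-read libraries of the series were not analysed here.

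An alternative exon is kept in the mRNA or skipped, and the choice depends on which proteins bind the RNA in and around it. RBFOX proteins bind a GCAUG element, MBNL proteins bind clusters of YGCY, CELF proteins bind GU-rich stretches and often act against MBNL, and QKI binds ACUAA elements. RBM20 represses exons of titin and of calcium-handling genes in heart muscle, and RBM24 supports the use of muscle exons. Several of these regulators also carry alternative exons of their own, which change where the protein sits in the cell or what it binds.

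The alternative exons that distinguish the products of RBFOX and MBNL genes were read from GENCODE M21 on the GRCm38 build, since no GRCm39 genome was used here, and are shown because they set the paralogs' products apart, with their inclusion given below. In each pair the capitals mark bases that differ between the paralogs at the same position. The 54-nt exon of Mbnl1 lies at chr3:60614683-60614736 on the plus strand and that of Mbnl2 at chr14:120395712-120395765 on the plus strand. The exon is known to carry part of the nuclear localization signal, and 8 of its bases differ (85.2% identity).
Mbnl1 54-nt exon: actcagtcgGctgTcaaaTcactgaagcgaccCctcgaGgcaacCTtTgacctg
Mbnl2 54-nt exon: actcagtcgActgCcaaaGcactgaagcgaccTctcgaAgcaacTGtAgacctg
Rbfox1 and Rbfox2 each hold a 40-nt exon and a 43-nt exon, the second being the form known from muscle. In Rbfox1 they are used in place of each other, while some Rbfox2 transcripts skip both. The 40-nt exons lie at chr16:7363865-7363904 on the plus strand for Rbfox1 and at chr15:77094451-77094490 on the minus strand for Rbfox2, with 6 differing bases. The 43-nt exons lie at chr16:7369801-7369843 and chr15:77091812-77091854 on the same strands, with 16 differing bases (62.8% identity).
Rbfox1 40-nt exon: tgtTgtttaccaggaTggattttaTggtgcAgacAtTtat
Rbfox2 40-nt exon: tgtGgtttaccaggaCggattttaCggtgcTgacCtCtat
Rbfox1 43-nt exon: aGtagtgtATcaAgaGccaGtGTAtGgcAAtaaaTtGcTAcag
Rbfox2 43-nt exon: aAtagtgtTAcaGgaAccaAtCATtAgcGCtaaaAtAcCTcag

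The libraries held 57.2 M to 63.1 M counts (M, mega) in MI and 24.3 M to 31.8 M counts in the other 3 groups. Depth thus goes with MI, against both its own sham and IR, and its part in the MI results was not tested. All 10 cardiomyocyte markers fell in both injuries, and their summed CPM (counts-per-million, TMM-scaled) ran from 15887 to 28656 in MI against 85822 to 99671 in MISham, and from 17266 to 34050 in IR against 91093 to 96455 in IRSham. All 10 macrophage markers rose in both, with summed CPM of 2699 to 3895 in MI against 615 to 1474 in MISham and 3120 to 5550 in IR against 1123 to 1799 in IRSham. Fibroblast and matrix markers ran from 18983 to 23435 CPM in MI against 2361 to 8408 in MISham, with 7 of 10 higher and 2 lower, and from 23508 to 28011 in IR against 5626 to 8261 in IRSham, with 8 higher and 1 lower. Of 8 skeletal muscle markers 5 were tested, with 3 higher and 1 lower in MI and 2 higher and 2 lower in IR. Their summed CPM ran from 702 to 1131 in MI against 1561 to 1763 in MISham, and from 659 to 977 in IR against 1572 to 2185 in IRSham. The untested Myh4, Myh1 and Tnnc2 totalled 2, 14 and 4 counts over the 16 libraries. In bulk RNA, fewer cells of a type and less RNA per cell cannot be told apart, and the part of these markers in the results below was not tested, beyond the values scaled to sarcomere genes. IR replicates 1 and 3 held the highest cardiomyocyte sums of their group.

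Of the 10 regulators, 7 fell and 1 rose in MI, and 6 fell and 1 rose in IR (edgeR's quasi-likelihood test, adjusted p under 0.05). Over all genes tested, 64.9% were called in MI (30.2% lower, 34.8% higher) and 57.7% in IR (28.2% lower, 29.5% higher), so a call by itself does not set these genes apart. The median log2 fold change of the 10 was -0.23 in MI and -0.29 in IR, beside 0.08 and 0.03 over all genes tested. The sizes divided the genes: Rbfox1, Rbm20 and Rbm24 fell by 1.59 to 2.83 on the log2 scale, Qk by 0.62 to 0.89, the other called falls were 0.30 or smaller in size, and Mbnl3 rose by 1.93 and 2.00. Under scaling by library size alone, the median of all genes moved to 0.39 in MI and 0.32 in IR, the higher share of all calls went from 53.5% to 68.6% in MI and from 51.1% to 69.1% in IR, and the small changes of Rbfox2, Mbnl2, Celf1 and Celf2 turned positive in 1 or both injuries, with Mbnl1 and Celf2 called higher in both and Mbnl2 in IR.

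**Figure D1:**
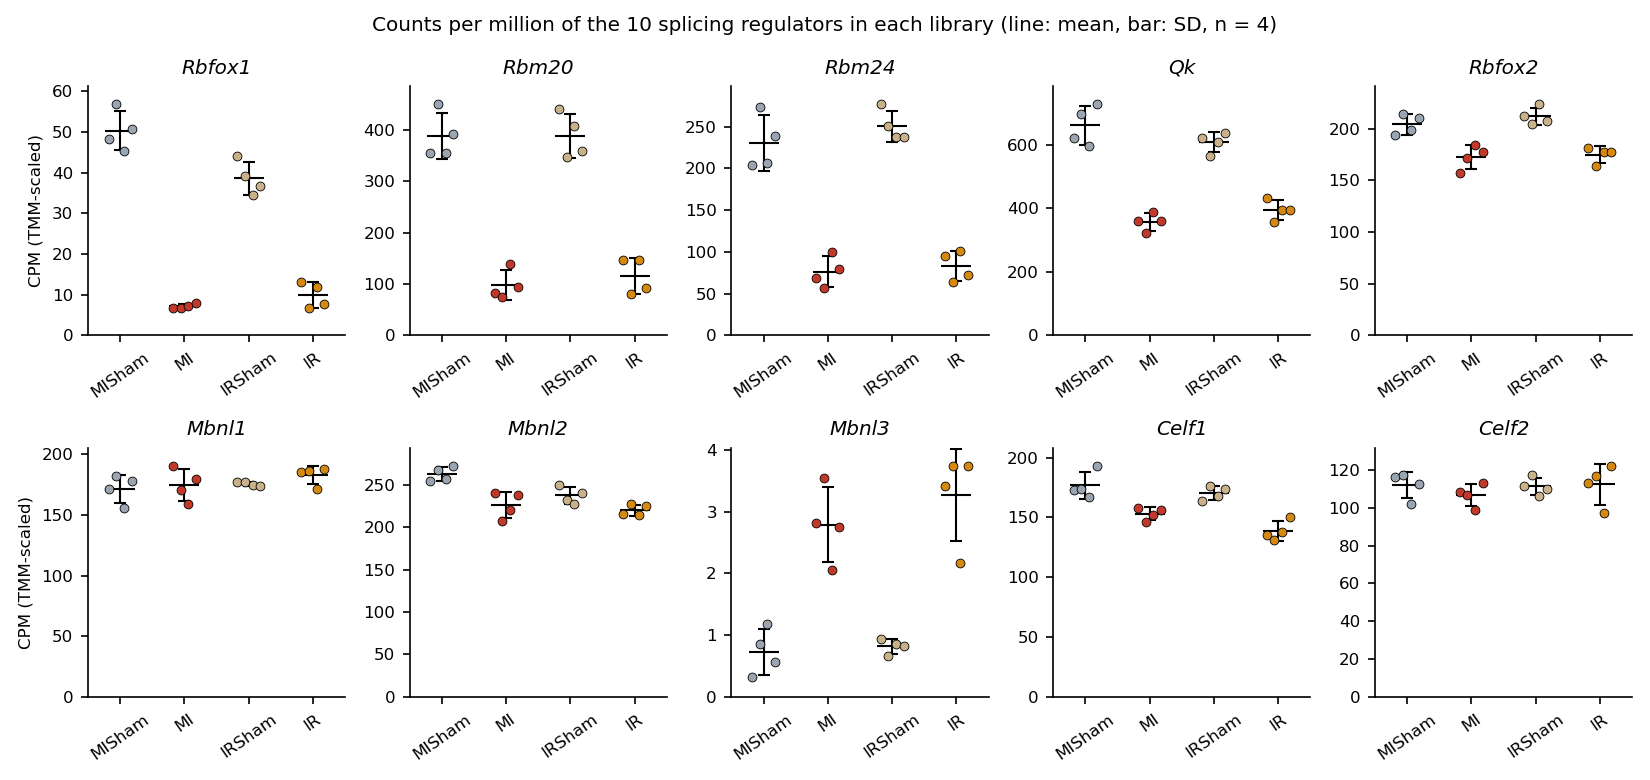
TMM-scaled CPM of the 10 splicing regulators in each library, by group, with the y axis in CPM from 0 (points: libraries; line: mean; bar: SD, n = 4). Rbfox1, Rbm20, Rbm24 and Qk sit lower in every injured library than in any sham library, Mbnl3 sits higher, and Mbnl1 and Celf2 overlap.

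Rbfox1, the RBFOX paralog of heart, skeletal muscle and brain, had the largest fall among the 10 genes. It stood at 6.65, 6.64, 7.07 and 7.93 CPM in the MI libraries and at 48.4, 56.8, 45.4 and 50.7 in MISham. It stood at 13.2, 6.69, 11.9 and 7.80 CPM in IR and at 44.1, 39.2, 34.6 and 36.7 in IRSham. No injured library reached any sham library, and IR replicates 1 and 3 were the highest of the injured ones. The change was -2.83 ± 0.17 (SE) in MI, 7.11-fold lower (adjusted p = 2.38e-09), and -1.97 ± 0.17 in IR, 3.91-fold lower (adjusted p = 1.03e-07).

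Rbm20, the cardiac repressor of titin exons, stood at 82.6, 75, 139 and 94.9 CPM in MI and at 354.6, 450.2, 356.4 and 392.5 in MISham. It stood at 147, 79.7, 146 and 92.2 CPM in IR and at 441, 349, 408 and 359 in IRSham. The groups were far apart, and MI replicate 3 and IR replicates 1 and 3, the libraries with the highest cardiomyocyte sums, also held the most Rbm20 among injured libraries. The change was -1.99 ± 0.22 in MI, 3.97-fold lower (adjusted p = 8.90e-07), and -1.74 ± 0.21 in IR, 3.35-fold lower (adjusted p = 5.16e-06).

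Rbm24, which promotes muscle exons and is needed for sarcomere assembly, was likewise highest among injured libraries in MI replicate 3 and IR replicates 1 and 3. It stood at 68.6, 56.3, 99.9 and 79.5 CPM in MI against 204, 274, 206 and 239 in MISham. In IR it stood at 95.3, 64.1, 101 and 72.3 CPM against 277, 250, 238 and 237 in IRSham. The change was -1.60 ± 0.17 in MI (adjusted p = 5.90e-07) and -1.59 ± 0.17 in IR (adjusted p = 1.11e-06), and no injured library overlapped a sham library.

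Qk, which encodes the QKI proteins, was the most counted of the 10 genes. It stood at 360, 322, 390 and 361 CPM in MI against 624, 700, 596 and 728 in MISham, and at 432, 357, 395 and 394 in IR against 622, 564, 609 and 637 in IRSham. The injured libraries all lay below the sham libraries. The change was -0.89 ± 0.09 in MI, 1.85-fold lower (adjusted p = 1.47e-07), and -0.62 ± 0.09 in IR, 1.54-fold lower (adjusted p = 1.10e-05).

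The MBNL genes split. Mbnl3, the paralog known from fetal and regenerating muscle and the least abundant here, stood at 2.81, 3.55, 2.05 and 2.74 CPM in MI against 0.321, 0.855, 1.18 and 0.560 in MISham. In IR it stood at 3.42, 3.74, 2.17 and 3.74 CPM against 0.936, 0.660, 0.846 and 0.817 in IRSham. Every injured library was above every sham library, with changes of 1.93 ± 0.32 in MI (3.80-fold, adjusted p = 4.11e-05) and 2.00 ± 0.32 in IR (3.99-fold, adjusted p = 3.68e-05). Mbnl2 ran from 208 to 241 CPM in MI and from 254 to 272 in MISham, without overlap, a change of -0.21 ± 0.06 (adjusted p = 0.00667). In IR it ran from 214 to 227 CPM against 227 to 250 in IRSham, a change of -0.11 ± 0.06 that missed the threshold (adjusted p = 0.152). On library size alone Mbnl2 changed sign, to 0.10 in MI, no longer called (adjusted p = 0.192), and to 0.18 in IR, called higher (adjusted p = 0.0200). Mbnl1, the main MBNL paralog of adult muscle, overlapped between groups, at 160 to 191 CPM in MI, 156 to 182 in MISham, 172 to 188 in IR and 174 to 178 in IRSham. Its change was 0.03 ± 0.07 in MI (adjusted p = 0.746) and 0.06 ± 0.07 in IR (adjusted p = 0.471). On library size alone it was called higher, at 0.34 (adjusted p = 0.000237) and 0.35 (adjusted p = 0.000215).

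Celf1 ran from 146 to 158 CPM in MI against 167 to 193 in MISham, and from 131 to 151 in IR against 163 to 176 in IRSham, with no overlap in either. Its change was -0.21 ± 0.06 in MI (adjusted p = 0.00740) and -0.30 ± 0.06 in IR (adjusted p = 0.000515), while on library size alone it was 0.10 and -0.01. Celf2 overlapped in both injuries, at 98.6 to 113 CPM in MI against 102 to 117 in MISham. Its changes were -0.07 ± 0.07 in MI (adjusted p = 0.411) and 0.01 ± 0.07 in IR (adjusted p = 0.895). On library size alone it was called higher, at 0.24 in MI (adjusted p = 0.00797) and 0.31 in IR (adjusted p = 0.00169). Rbfox2, the RBFOX paralog found in most tissues, ran from 157 to 184 CPM in MI against 194 to 214 in MISham, and from 164 to 182 in IR against 205 to 223 in IRSham. Its change was -0.24 ± 0.06 in MI (adjusted p = 0.00334) and -0.28 ± 0.06 in IR (adjusted p = 0.00133), and on library size alone it was 0.07 and 0.01.

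Each library was also scaled so that the mean log CPM of 16 sarcomere genes (the scaling list) was level, which gives every gene relative to sarcomere RNA of the same library. On this scale 7 regulators were higher, 1 was lower and 2 did not pass in each injury, where 81.8% of all genes were higher and 3.51% lower in MI, and 80.3% higher and 2.06% lower in IR. Called in either direction were 85.3% in MI and 82.4% in IR. The all-gene median stood at 1.81 and 1.63, so a value near 0 here means a fall as large as that of sarcomere RNA. Rbm24 stood at 0.07 ± 0.16 in MI and -0.04 ± 0.16 in IR, and Rbm20 at -0.33 ± 0.17 (adjusted p = 0.0662) and -0.22 ± 0.17 (adjusted p = 0.214). The Rbm20 libraries of MI, at 163 to 191 CPM on this scale, all lay below those of MISham, at 217 to 241. Those of IR and IRSham overlapped. With calcium-handling genes as the scale, Rbm24 was 0.38 in MI (adjusted p = 0.0428) and 0.08 in IR. Without MI replicate 3 the Rbm20 value in MI was called at -0.33 (adjusted p = 0.0477).

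Rbfox1 was the 1 gene of the 10 called lower than sarcomere RNA. In CPM on the sarcomere scale it stood at 15.4, 16.1, 9.13 and 13.6 in MI against 29.8, 30.4, 28.6 and 27.9 in MISham, a change of -1.11 ± 0.20 (2.15-fold lower, adjusted p = 1.71e-05). In IR it stood at 17.7, 13.9, 15.4 and 16.0 against 22.6, 21.5, 19.98 and 21.6, a change of -0.44 ± 0.20 (adjusted p = 0.0439). The IR call was narrow: it was lost on leaving out any 1 of 12 libraries, with values from -0.39 without IR replicate 2 (adjusted p = 0.103) to -0.47 without IRSham replicate 3 (adjusted p = 0.0579). It was also lost with calcium-handling genes as the scale, at -0.33 (adjusted p = 0.125). Qk turned positive on the sarcomere scale, at 0.83 ± 0.20 in MI and 0.96 ± 0.20 in IR.

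**Figure D2:**
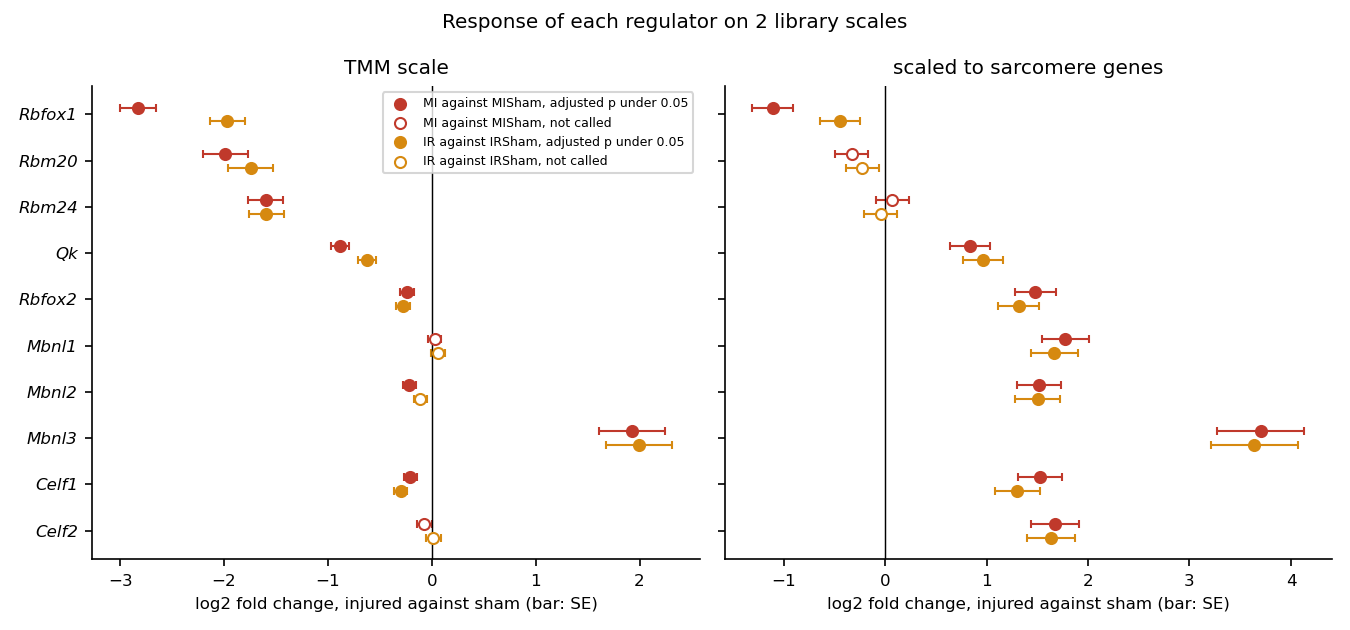
Log2 fold change of each regulator, injured against sham, on the TMM scale (left) and scaled to sarcomere genes (right), with SE bars, MI in red and IR in orange, and filled points where the adjusted p was under 0.05. Rbm24 moves from about -1.6 on the left to near 0 on the right. Rbm20 moves from -1.99 in MI and -1.74 in IR to -0.33 and -0.22, while Rbfox1 in MI stays at -1.11.

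The responses to MI and IR did not differ for any of the 10 genes by edgeR's quasi-likelihood test (0 called, beside 0.192% of all genes tested), and 1 of the 10 had an unadjusted p under 0.05, as did 14.7% of all genes. That gene was Rbfox1, whose response was lower in MI by 0.86 ± 0.23 on the log2 scale (adjusted p = 0.116). DESeq2 called 1 of the 10, again Rbfox1, at -0.92 (adjusted p = 0.0174). The edgeR call was also made without IR replicate 2, at -1.01 (adjusted p = 0.0485), and without MISham replicates 1 and 3, at -0.95 (adjusted p = 0.0496), whereas without IR replicates 1 and 3 the value was -0.45 (adjusted p = 0.230). Between the sham groups 0 of the 10 were called by edgeR (3.2% of all genes) and 0 by DESeq2, with 2 at an unadjusted p under 0.05 (14.2% of all genes), Rbfox1 (0.38, adjusted p = 0.286) and Mbnl2 (0.15, adjusted p = 0.303).

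Levels can be compared between genes only per length, so the next values are TPM (transcripts-per-million) summed over the annotated transcripts of each gene. In the shams the order ran from Rbm24 (79.0 ± 11.95 in MISham and 99.1 ± 14.6 in IRSham, SD, n = 4) and Rbm20 (70 ± 8.78 and 77.6 ± 10.8), which overlapped, to Qk (53.5 ± 2.81 and 52.5 ± 4.68) and Mbnl2 (40.5 ± 3.88 and 38.6 ± 4.24). Celf1, Mbnl1 and Rbfox2 followed at 23.4 to 29.4 TPM and overlapped with their neighbours among these 3, then came Rbfox1 (19.7 ± 1.41 and 16.3 ± 1.98) and Celf2 (15.4 ± 1.46 and 15.8 ± 1.71), which overlapped in IRSham, and last Mbnl3 (0.197 ± 0.0856 and 0.328 ± 0.125). In the injured hearts Mbnl2 came first, at 78.9 ± 10.53 TPM in MI and 73.2 ± 9.18 in IR, which overlapped with Rbm24 in IR, and Rbm20 had rank 7 of the 10. The largest share of the Mbnl2 sum belonged to a transcript annotated without an open reading frame, described below. The place of Mbnl2 is thus that of all its annotated transcripts, and its place among coding transcripts alone was not tested. In MI, neighbours from Qk (48.3 ± 4.90) through Rbm24 (45.8 ± 11.9), Mbnl1 (45.7 ± 4.93), Rbfox2 (39.3 ± 2.35) and Celf1 (36.8 ± 1.63) to Rbm20 (29.8 ± 7.17) all overlapped. Rbfox1 stood at 4.33 ± 0.674 TPM in MI and 6.29 ± 2.79 in IR, above Mbnl3 alone (1.03 ± 0.366 and 1.46 ± 0.534).

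The TPM scale and the TMM scale gave opposite directions for Mbnl2, Rbfox2 and Celf1, and for Celf2 in MI, at 17.04 to 21.03 TPM against 13.8 to 16.8 in MISham. Mbnl1, Mbnl2, Rbfox2 and Celf1 were higher in TPM in every injured library than in any library of their sham group, for example Mbnl2 at 67.9 to 91.7 in MI against 35.3 to 44.6 in MISham. On that scale 59% of all transcripts tested were called in MI (49% higher, 10.1% lower) and 51.7% in IR (42.5% higher, 9.23% lower) by limma on log2(TPM + 1). The means of Rbfox1, Rbm20 and Rbm24 were lower and that of Mbnl3 higher on both scales. The fall of Qk in TMM-scaled CPM was not a separation in TPM, where it overlapped at 43.7 to 54.2 in MI against 50.7 to 57.4 in MISham and at 44.5 to 57.1 in IR against 45.6 to 56.2 in IRSham. The transcript shares below are ratios within a gene and carry no library scale.

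A transcript's share is its TPM as a percent of the annotated TPM of its gene, and shares were tested for 43 transcripts of 9 of the 10 genes, and Mbnl3 was too low for the test. A share was called at an adjusted p under 0.05 (limma) with a change of at least 10 points, which 5.73% of all tested transcripts met in MI (2.87% higher, 2.86% lower) and 3.59% in IR (1.81% higher, 1.78% lower). Of the 43, 3 were called in MI (1 higher, 2 lower) and 2 in IR (both lower), shares near that background. Rbm20 and Rbm24 had no called share: the full-length Rbm20-203 of 1199 codons held 38.8% in MISham and 39.2% in MI, and Rbm24-201 held 74.4% and 70%.

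QKI-5, the nuclear QKI protein, is encoded here by Qk-204 (8547 nt). It held 22.3, 27.6, 28 and 26.1% of Qk TPM in MI against 38.3, 38.3, 40.7 and 40.2% in MISham. In IR it held 28.3, 26.1, 23.2 and 18.4% against 41.8, 34.3, 36.4 and 40% in IRSham. No injured library reached a sham library, with changes of -13.4 ± 2.75 points in MI (adjusted p = 0.00838) and -14.1 ± 2.75 points in IR (adjusted p = 0.0100). Qk-206, the main transcript of QKI-6, stood 6.8 points higher in MI (adjusted p = 0.213) and 7.7 points higher in IR (adjusted p = 0.178). Counted together with the nonsense-mediated decay transcript Qk-202 of the same open reading frame length, QKI-6 held 50.8 ± 2.40% in MISham, 58.6 ± 2.41% in MI, 52.5 ± 3.34% in IRSham and 63.1 ± 4.42% in IR. QKI-7 (Qk-201) held 9.51 ± 1.93, 12.3 ± 0.730, 9.36 ± 0.534 and 12.9 ± 0.627% in the same order. On log2(TPM + 1), Qk-204 fell by 0.71 in both injuries, while Qk-206 changed by 0.10 and 0.17 without passing.

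Celf2-202 (7491 nt, 484 codons) held 0.32, 6.10, 6.16 and 0.66% of Celf2 TPM in MI against 14.5, 13.2, 18 and 20.6% in MISham. In IR it held 8.19, 0.00, 4.03 and 0.00% against 18, 14.1, 17.9 and 18.2% in IRSham. Its share fell by 13.3 points in MI (adjusted p = 0.00339) and by 13.99 points in IR (adjusted p = 0.00454). Here and below, a share at or near 0.00% in estimated levels can be a failed estimate. Celf2-226 (472 codons) stood at 23.1% in MI against 9.3% in MISham, a change of 13.8 points that missed the threshold (adjusted p = 0.0506).

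Mbnl2-204 (2390 nt, 355 codons), which lacks the 54-nt exon shown above, was listed at 0.25% or less of Mbnl2 TPM in the MISham libraries. It held 13.3, 11, 15.5 and 9.36% in MI, a change of 12.2 points (adjusted p = 0.000301). In IR it held 11.2, 10.55, 7.81 and 7.07% against 0.00, 3.60, 0.14 and 0.00% in IRSham, a change of 8.2 points (adjusted p = 0.00715) that was under the 10 points a call asks for. The largest share of Mbnl2 belonged to Mbnl2-205, a 2-exon transcript without an open reading frame in the annotation, at 62.3 ± 8.80% in MISham and 46.6 ± 1.90% in MI, 60.3 ± 8.99% in IRSham and 49.9 ± 3.82% in IR. Rbfox2-209 (377 codons) rose from 2.0 ± 1.19% in MISham to 9.9 ± 1.94% in MI, which passed the test (adjusted p = 0.00752) but not the 10 points.

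The inclusion of each annotated internal exon, the TPM of transcripts that hold it over the TPM of transcripts that hold or skip it, was added after the data had been seen. It rests on estimated transcript levels, not on reads across junctions. Among 19 exons of 8 of the regulators, 2 were called in MI (limma, adjusted p under 0.05 and at least 10 points) and 0 in IR, where 9.37% (3.3% higher, 6.07% lower) and 7.47% (2.81% higher, 4.67% lower) of all 5487 exons were called. At an unadjusted p under 0.05 stood 4 of the 19 in MI and 5 in IR, beside 24.7% and 22.3% of all exons. The 54-nt exon of Mbnl1 was included at 27.3 ± 8.70% in MISham and 28.3 ± 6.15% in MI, and at 27.8 ± 2.68% in IRSham and 26.7 ± 2.55% in IR. The change was 1.0 ± 3.95 points in MI and -1.1 ± 3.95 points in IR. That of Mbnl2 was included at 22.8 ± 11.5%, 25.6 ± 2.54%, 31.2 ± 9.79% and 25.4 ± 8.35% in the same order, with changes of 2.8 ± 5.78 and -5.8 ± 5.78 points. The spread between Mbnl2 libraries was wide, from 7.11 to 34.5% within MISham.

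The muscle-type 43-nt exon of Rbfox1 was included at 61.3, 48.3, 53.0 and 50.6% in MI against 65.7, 62.0, 60.5 and 63.2% in MISham. In IR it was included at 52.7, 44.4, 71.1 and 39.7% against 63.9, 59.4, 65.6 and 64.0%. The groups overlapped through MI replicate 1 and IR replicate 3, and the changes of -9.5 ± 5.28 points in MI (adjusted p = 0.295) and -11.2 ± 5.28 points in IR (adjusted p = 0.225) were not called. The 40-nt exon moved by the same amounts upward, since each transcript holds one or the other. Rbfox2 used its 40-nt exon at 79.9 to 86.8% and its 43-nt exon at 8.93 to 10.9% in the means of all 4 groups, the reverse of Rbfox1 in the shams, with no call.

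The 144-nt exon of Celf2 (chr2:6549832-6549975 on GRCm38, minus strand) was included at 52.9, 68.9, 69.3 and 56.7% in MI against 76.6, 76.6, 75.4 and 80.1% in MISham, a change of -15.3 ± 4.06 points (adjusted p = 0.0250). In IR the change was -12.4 ± 4.06 points (adjusted p = 0.0736). The MI call was lost without MI replicate 1 (-12.2), MI replicate 4 (-13.5) or MISham replicate 4 (-14.3), and without MISham replicates 1 and 3 (-16.4, adjusted p = 0.0745). A 95-nt exon of Mbnl2 had the other call, 18.3 ± 3.59 points higher in MI (adjusted p = 0.00386), and its only skipping transcript was the 2-exon Mbnl2-205 described above. In IR its change was 11.2 points (adjusted p = 0.0684), and it was called without IRSham replicate 4, at 14.6 points (adjusted p = 0.0159). Without IR replicate 3, 3 exons of the regulators were called in IR, and 1 without IRSham replicate 2 or 4.

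**Figure D3:**
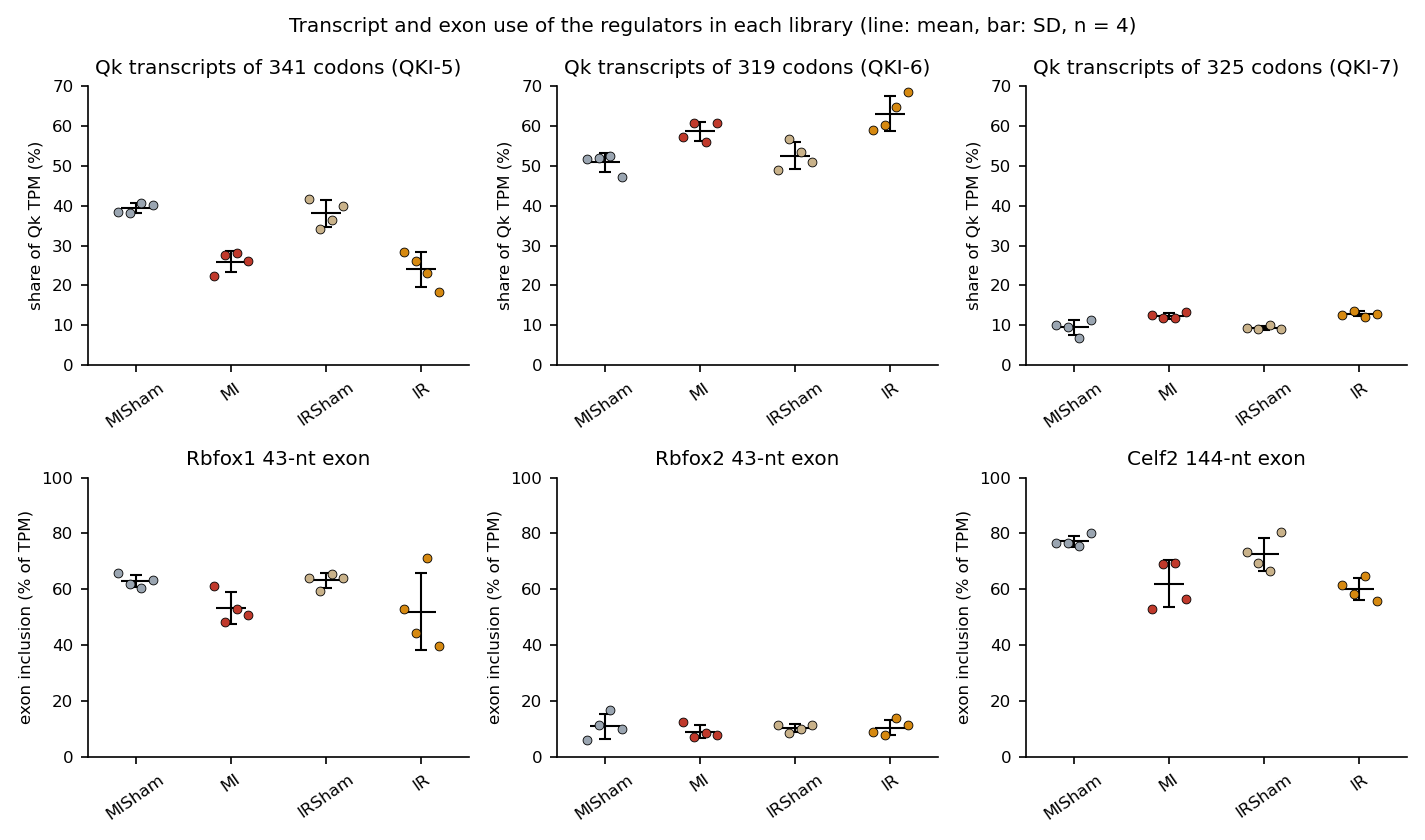
Top, share of Qk TPM in percent held by transcripts of QKI-5, QKI-6 and QKI-7 in each library; bottom, inclusion in percent of the 43-nt exons of Rbfox1 and Rbfox2 and the 144-nt exon of Celf2 (points: libraries; line: mean; bar: SD, n = 4). QKI-5 falls from 38.1 to 39.4% in the shams to 24.0 to 26.0% in the injured groups without overlap, while the Rbfox1 exon overlaps between groups.

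Genes known from other work as splicing targets of these proteins were listed for each regulator, 52 in all, with 2 of the regulators, Mbnl1 and Mbnl2, among the MBNL targets. Of their 140 tested exons, 31 were called in MI (7 higher, 24 lower, 22.1%) and 17 in IR (5 higher, 12 lower, 12.1%), beside 9.37% and 7.47% of all exons. Exons of 1 gene share transcripts and are not independent, and Nebl alone held 10 of the called exons in MI. The lists were chosen with earlier results of these data known, so a called share above that of all exons is a description and not a test. By list, the called share in MI and IR was 12.3% and 9.59% of 73 exons for RBM20, 10.53% in each of 38 for MBNL, 18.5% and 11.1% of 27 for RBFOX, 25% and 16.7% of 12 for RBM24, 50% and 33.3% of 12 for CELF, and 54.5% and 13.6% of 22 for QKI. Of the 12 QKI-list exons called in MI, 10 were those of Nebl, and some of these had identical values. Several genes are on more than 1 list, so an exon does not belong to a single regulator. Exons of 3 genes that were called in both injuries are shown, with the exon in capitals and 20 bases of the neighbouring exons on each side in lower case, from GENCODE M21 on GRCm38, along the transcript.
Fxr1 81-nt exon, chr3:34064974-34065054, plus strand: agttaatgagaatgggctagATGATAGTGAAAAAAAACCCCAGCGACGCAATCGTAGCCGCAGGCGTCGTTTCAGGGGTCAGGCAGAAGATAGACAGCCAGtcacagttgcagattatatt
Mef2a 24-nt exon, chr7:67244521-67244544, minus strand: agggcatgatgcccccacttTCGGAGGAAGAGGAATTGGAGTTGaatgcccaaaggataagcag
Camk2d 42-nt exon, chr3:126808208-126808249, plus strand: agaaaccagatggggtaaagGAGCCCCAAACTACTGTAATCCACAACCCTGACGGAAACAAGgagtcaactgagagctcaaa

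The Fxr1 exon shown marks the muscle form of FXR1, an RNA-binding protein, and Fxr1 is listed for MBNL, CELF and RBM24. It was included at 14.8, 8.15, 29.8 and 17.8% in MI against 63.8, 69.6, 62.7 and 66.6% in MISham. In IR it was included at 27.7, 0.01, 35.6 and 19.7% against 67.97, 65.4, 66.7 and 63.2% in IRSham. Every injured library lay far below the shams, with changes of -48.1 ± 6.08 points in MI (adjusted p = 0.000133) and -45.1 ± 6.08 points in IR (adjusted p = 0.000479). The count of Fxr1 itself fell by 0.87 in MI and by 0.74 in IR on the log2 scale.

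The 24-nt exon of Mef2a, a muscle transcription factor listed for RBFOX and CELF, was included at 34.2, 28.3, 41.5 and 33.4% in MI against 71.3, 80.5, 72.9 and 72.2% in MISham. In IR it was included at 55.8, 35.7, 38.5 and 40.2% against 70.4, 71.7, 66.2 and 72.4%. The change was -39.9 ± 4.23 points in MI (adjusted p = 3.06e-05) and -27.6 ± 4.23 points in IR (adjusted p = 0.00116), with IR replicate 1 the nearest to the shams. The 37-nt exon of Atp5c1, the gamma subunit of ATP synthase and an RBFOX target that muscle skips, moved the other way. It was included at 21.5 to 33.7% in MI against 4.57 to 7.47% in MISham and at 18.7 to 26.3% in IR against 6.30 to 7.98% in IRSham, changes of 21.9 ± 2.48 points (adjusted p = 4.82e-05) and 15.5 ± 2.48 points (adjusted p = 0.00154). The 69-nt exon of Tsc2, another RBFOX-listed gene, was 30.3 ± 4.94 points lower in MI (adjusted p = 0.00104) and 10.1 points lower in IR without a call (adjusted p = 0.242). The difference between these Tsc2 responses did not pass (adjusted p = 0.470).

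The 42-nt exon of Camk2d, a calcium-dependent kinase and RBM20 target, was included at 27.1 to 36.2% in MI against 39.7 to 56.02% in MISham and at 19.4 to 39.5% in IR against 43.3 to 53.9% in IRSham. Its changes were -18.3 ± 4.52 points (adjusted p = 0.0157) and -17.3 ± 4.52 points (adjusted p = 0.0281), with no overlap in either. Of 18 RBM20 targets, Sh3kbp1 and Nexn also had called transcript shares. Sh3kbp1-202 gained 31.8 points in MI and 27.2 in IR. Nexn-215 lost 21.5 points in MI, while in IR it changed by 2.6 points (adjusted p = 0.857). The 171-nt exon of Nexn was called higher in both injuries, without overlap. It rose by 12.6 points in MI (adjusted p = 0.00822) and by 13.1 points in IR (adjusted p = 0.0101). The 189-nt exon of Nexn was also called higher in both. Its 192-nt exon was called lower in IR, at -19.1 points (adjusted p = 0.0438), and was not called in MI, at -6.2 points. Nexn-215 (479 nt) is annotated without an open reading frame. So are Sh3kbp1-212 and Sh3kbp1-209, which went from 47.2 and 36.9% in MISham to 23.0 and 18.6% in MI. Of 67 tested transcripts of the RBM20 list, 7.46% were called in each injury, beside 5.73% in MI and 3.59% in IR of all transcripts.

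The 113-nt exon of Capzb, which marks 1 of the actin-capping beta subunits and is listed for CELF and QKI, was included at 30.1 to 45.3% in MI against 77.0 to 86.6% in MISham and at 35.2 to 44.25% in IR against 77.4 to 84.7% in IRSham. Its changes of -45.5 ± 3.61 points (adjusted p = 3.54e-06) and -40.8 ± 3.61 points (adjusted p = 1.18e-05) came while the count of Capzb changed by 0.19 and 0.02. The 5916-nt exon of Naca, which makes the muscle protein skNAC and is listed for RBM24, was included at 3.38 to 5.33% in MI against 22.3 to 31.6% in MISham, a change of -20.7 ± 2.35 points, and was 17.8 ± 2.35 points lower in IR. Nebl, which encodes nebulette and is listed for QKI, used transcript Nebl-202 less by 20.55 points in MI (adjusted p = 0.00141) and by 12.9 points in IR (adjusted p = 0.0322). In H2afy, a histone gene listed for CELF, inclusion of the 100-nt exon rose from 8.5 ± 3.76% to 42.7 ± 1.89% in MI and from 13.8 ± 7.45% to 31.7 ± 8.22% in IR, where the groups overlapped.

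Tnnt2, cardiac troponin T and a textbook target of MBNL and CELF, gave its clearest share change in MI. Tnnt2-201 was listed at 0.00% in all 4 MI libraries against 43.4, 42.8, 38.3 and 55.5% in MISham. In IR it held 30.4, 44.1, 44.8 and 48.5% against 51.6, 46.6, 42.3 and 21.2%, which overlapped. Tnnt2-211, annotated with the same 291 codons, went from 30.9 ± 8.66% in MISham to 74.9 ± 2.04% in MI, a change of 44.0 points (adjusted p = 0.000875), and by -8.7 points in IR (adjusted p = 0.509). A value of exactly 0 in estimated levels can be a failed estimate, and the difference between the responses, -46.5 ± 8.24 points, did not pass (adjusted p = 0.0809).

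**Figure D4:**
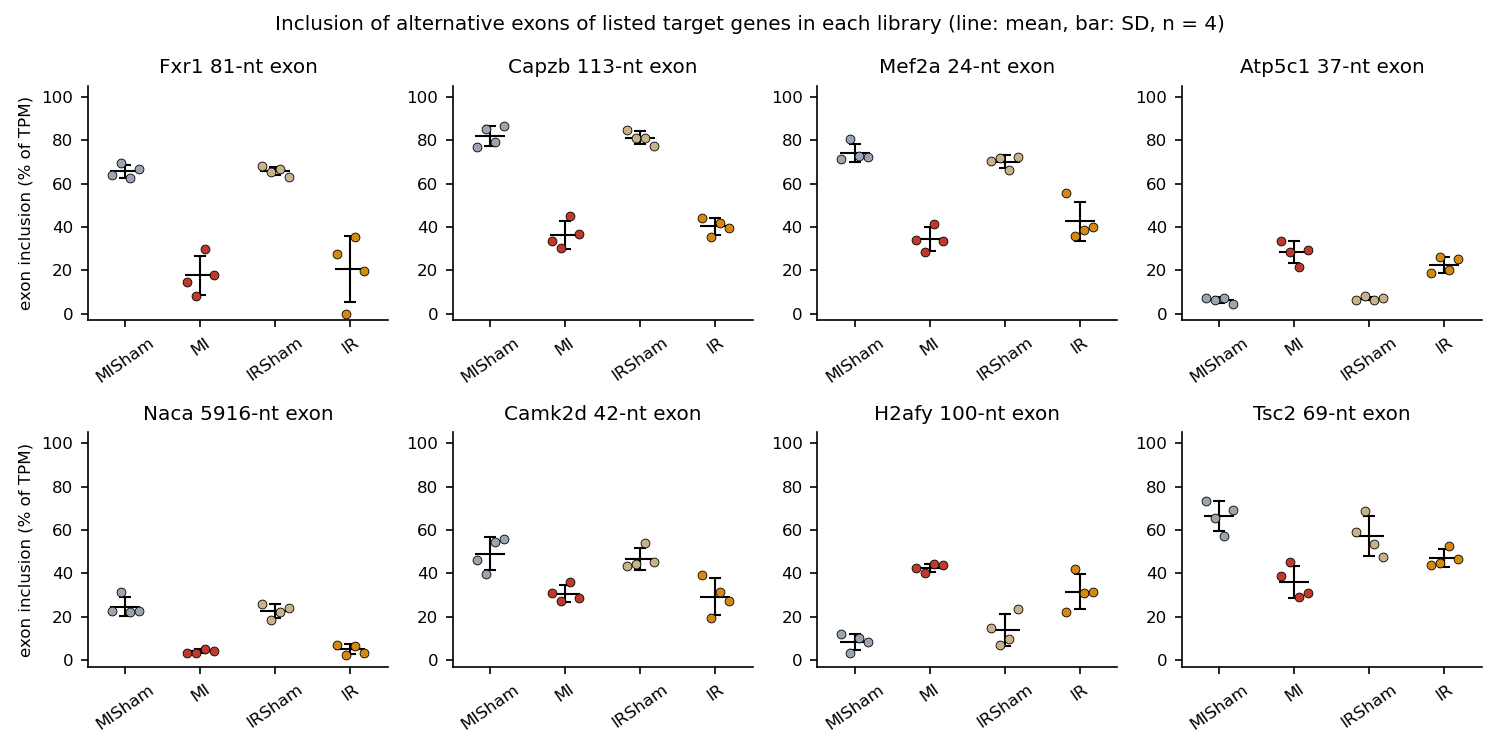
Inclusion in percent of 1 alternative exon of each of 8 listed target genes in every library, chosen as the tested exon with the largest change in MI for the gene (points: libraries; line: mean; bar: SD, n = 4). Fxr1, Capzb, Mef2a, Naca and Camk2d sit lower and Atp5c1 sits higher in every injured library than in any library of its sham group, while the IR and IRSham libraries of H2afy and Tsc2 overlap.

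Of 16 related splicing regulators, 13 were tested, of which 5 were higher and 4 lower in MI, and 5 higher and 4 lower in IR, with a median of 0.44 and 0.06, beside 64.9% and 57.7% called and medians of 0.08 and 0.03 over all genes. Ptbp1, a repressor of muscle and neuron exons, rose from 53.3 ± 12.5 to 198 ± 18 CPM in MI and from 57.5 ± 6.52 to 161 ± 22.4 in IR, by 1.89 ± 0.15 and 1.48 ± 0.15 on the log2 scale. Its paralog Ptbp3 rose by 1.30 and 1.20, and Msi1, a low gene at 0.71 to 2.64 CPM in the group means, by 1.87 and 1.60. Celf4 rose by 1.64 in MI (adjusted p = 0.00139), with 0.80 in IR (adjusted p = 0.0893), and Celf5 by 1.32 in IR (adjusted p = 0.0151), with 0.48 in MI (adjusted p = 0.334). Neither response was shown to differ between the injuries (adjusted p = 0.491 and 0.542). Rbm38, the paralog of Rbm24, fell by 1.73 and 1.61, close to Rbm24 itself, and Msi2 fell by 1.19 and 1.09.

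Over the 16 libraries, the log2 CPM of Rbm20 and Rbm24 had a Pearson r of 0.99, and those of Rbfox1 had r of 0.98 with Rbm20, 0.97 with Rbm24 and 0.98 with Qk. These are descriptions, since the libraries share groups. Many genes followed these patterns: 3031 genes had r over 0.9 with Rbm20, 3027 with Rbm24, 3012 with Rbfox1 and 2872 with Qk. For the other members the numbers were 1434 with Rbfox2, 946 with Mbnl3, 51 with Celf1, 4 with Mbnl2 and 0 with Mbnl1 or Celf2. The 2 genes most like Rbm20 were Akap6 and Svil, those most like Rbm24 were Gpsm1 and Kcnq1, those most like Rbfox1 were Mmab and Mut, and those most like Qk were Ralgapa1 and Fxr1. For the others they were Gm5860 and Them6 (Rbfox2), Ccdc93 and Pon3 (Mbnl1, r of 0.79 and 0.76), Bcas2 and Cab39 (Mbnl2), AU022793 and Pcyt1b (Mbnl3), Fermt2 and Psmd12 (Celf1), and Ift52 and Cdh6 (Celf2, r of 0.80 for both).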

How the data were processed

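The authors deposited raw counts per gene, whole numbers with no normalization, and TPM per transcript for 16 short-read libraries. The submitters' processing notes list kallisto 0.50.1, featureCounts 2.0.1, HISAT2 2.2.1, SAMtools 1.7 and the GRCm39 build. The strand setting and annotation release are not given in the sources used here. The antisense genes found, for Mbnl1, Mbnl2, Celf1 and Rbm24, held at most 0.0521% of the member's counts. Annotated genes on the opposite strand were looked up for Mbnl2 and Celf2 alone. GENCODE M21 (GRCm38) supplied names, exon structures and sequences, and all 121 transcripts of the 10 genes matched with equal length. Counts were fitted with edgeR 4.0.16 (R 4.3.3; TMM; filterByExpr, minimum count 10 and total 15; robust quasi-likelihood, 1 mean per group), with DESeq2 1.42.0 as an alternative. CPM are TMM-scaled. Limma 3.58.1 tested transcripts on log2(TPM + 1) where mean TPM reached 1, and shares where the gene's TPM sum reached 5 and at least 2 of its transcripts averaged 5% or more. P-values were adjusted by Benjamini-Hochberg over all features. Gene and share fits were tested on simulated data in which few features changed, and in MI alone. Far more features were called in the data here, so the simulation cannot judge the choice of library scale. The members, lists, tests and the rule for named genes (all members; member transcripts averaging at least 5% of the gene; related regulators changed by at least 1 on the log2 scale; up to 12 target genes with called shares; the 2 genes most like each member by Pearson r) were chosen with earlier results of these data known. Exon inclusion and the fits without 2 libraries were added after the data had been seen. One target gene is not reported here.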

Additional observations from a re-analysis of the deposited data

Results flagged for a closer look

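In 7 cases 1 library stood apart from the other 3 of its group by Dixon's test, and chance flags about 1 in 20 groups. Of 40 groups of CPM values 1 was marked: Mbnl1 in IR replicate 3, at 171.9 CPM, below the other IR libraries. Of 12 groups of Qk product shares 1 was marked: QKI-6 in MISham replicate 4, at 47.3% of Qk TPM. Of 76 groups of exon inclusion 5 were marked. These were the Celf1 152-nt exon in MI replicate 2 (24.4%) and in IRSham replicate 4 (13.4%), the Mbnl2 95-nt exon in IRSham replicate 4 (37.0%), the Mbnl1 36-nt exon in IR replicate 2 (78.8%) and the Rbm24 113-nt exon in IR replicate 3 (18.2%). IRSham replicate 4 accounts for 2 of the 5, and leaving it out changed the call of the Mbnl2 exon in IR.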

How the results depend on the processing

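Over the alternatives, 841 of the single values kept direction and call, 19 changed sign, some with a change of call, and of the rest 20 lost a call and 10 gained one, and of the counts 590 stayed within 1.5 times and 92 did not; the falls of Rbfox1, Rbm20, Rbm24 and Qk and the rise of Mbnl3 were called under every alternative of the TMM-scaled gene fit, which leaves out the sarcomere scale. Where a value moved, the cause was not tested. On library size alone the sign changed for Celf1 (0.10), Celf2 (0.24), Mbnl2 (0.10) and Rbfox2 (0.070) in MI and for Mbnl2 (0.18) and Rbfox2 (0.013) in IR, and Celf2, Mbnl1 (both injuries) and Mbnl2 (IR) were called higher. The Mbnl1 change in MI, 0.03 in the report, was -0.027 with DESeq2 size factors, -0.027 with the DESeq2 test, -0.029 with only the groups of the contrast, -0.011 without IR replicates 1 and 3, -0.035 without MISham replicates 1 and 3, and -0.017 to 0.071 on leaving out 1 library. That of Celf2 in IR ran from -0.028 to 0.076 on leaving out 1 library. Rbm24 in IR on the sarcomere scale was 0.081 with calcium-handling genes as scale and 0.017 without IR replicates 1 and 3.

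Counts over all features moved mainly for the small contrasts. Genes with different MI and IR responses (38) were 511 with DESeq2, 117 with no low-count filter, 129 without IR replicates 1 and 3, 1096 without MISham replicates 1 and 3, and 3 to 282 without 1 library (282 without IR replicate 3). Genes between the shams (632) were 963 with DESeq2 and 1674 without MISham replicates 1 and 3. Transcripts between the shams (8) were 20 with a pseudocount of 0.1, 201 without MISham replicates 1 and 3 and 6 to 15 without 1 library. Transcripts with different responses (34) were 144 without IR replicates 1 and 3, 171 without MISham replicates 1 and 3 and 18 to 91 without 1 library. Shares between the shams (19) were 12 on the arcsine square root scale, 11 with a gene TPM of at least 1, 0 with at least 20, 93 without MISham replicates 1 and 3 and 6 to 40 without 1 library. Shares with different responses (0) were 2 on the arcsine scale, 2 with a gene TPM of at least 1, 22 with at least 20, 23 without IR replicates 1 and 3, 24 without MISham replicates 1 and 3 and 0 to 17 without 1 library. On leaving out 1 library, shares called ran from 951 to 1541 in MI (951 without MI replicate 1) and from 534 to 1007 in IR (534 without IR replicate 2), and exons called in IR from 245 to 442 (245 without IR replicate 2). Exons between the shams (1) were 14 without MISham replicates 1 and 3 and 1 to 5 without 1 library, and exons with different responses (0) were 4 without IR replicates 1 and 3, 5 without MISham replicates 1 and 3 and 0 to 2 without 1 library.

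Of the 10 regulators, the number called between the shams (0) was 1 with only the groups of the contrast and 1 without IR replicates 1 and 3. The number whose responses differed (0) was 1 with DESeq2, 1 without MISham replicates 1 and 3, and 0 to 1 without 1 library. Their called shares were 1 in IR with a gene TPM of at least 20, and 2 to 5 in MI without 1 library (5 without MISham replicate 3). Their called exons in IR (0) were 2 without IR replicates 1 and 3 and 0 to 3 without 1 library, and in MI (2) they were 1 without MISham replicates 1 and 3 and 1 to 2 without 1 library.

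With the replicate number as a block (replicate block), 10 genes and 18 transcripts had different responses, 1 share had different responses, 10 shares differed between the shams, and Rbfox1 in IR on the sarcomere scale lost its call (-0.44, adjusted p = 0.0516). Same-numbered libraries correlated at -0.0562 to 0.0506 over all genes after removal of group means. These weak values cannot exclude a pairing that affects few genes.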
